A study of Mus musculus with 16 samples.

Results

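The genes described here are those that fell at least 8-fold in a mouse erythroid cell line when a GATA1 fusion protein was sent to the nucleus with the highest dose of beta-estradiol. They were chosen by their own expression values. A member had a mean of at least 10 CPM (reads scaled to the library total and by the TMM method) at 0 nM and at most one eighth of that mean at 200 nM. These thresholds were met by 66 genes. Of them 7 (Car1, Il1rl1, Cd109, Mt2, Slc30a2, Slc19a1 and Dctd) were left out by the rule, which left 59 members of the 10080 genes tested and of the 23410 gene symbols in the table. Because levels at 200 and 0 nM chose the members, those levels are given as a description with no test. Tests were made between doses from 12.5 to 150 nM, whose libraries played no part in the choice.

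The RNA came from G1E-ER4 cells, which have lost their own GATA1 and carry GATA1 joined to the hormone-binding part of the estrogen receptor. Cells received 0, 12.5, 25, 50, 75, 100, 150 or 200 nM beta-estradiol, with 2 libraries at each of the 8 doses, 16 in all. Every group, the 0 nM cells included, carried the same fusion protein and grew with stem cell factor and erythropoietin. The line stands for erythroid cells in culture only, the labels do not say whether replicates were separate cultures, and p-values then measure the spread between these libraries, which may be technical. Library totals ran from 9393156 to 15802510 counts.

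GATA1 is the transcription factor that drives red cell maturation. It turns on globin, heme and membrane genes and turns off genes of earlier blood cells, in part by taking the place of GATA2 on DNA. When the hormone reaches the fusion protein in these cells, they stop dividing and mature toward red cells.

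The 59 members shrank to a small residue over the dose series. Summed over the members, the libraries held 2977 and 2990 CPM (0 nM), 2900.0 and 2966 (12.5 nM), 2742 and 2801 (25 nM), 1943 and 1918 (50 nM), 1341 and 1383 (75 nM), 946 and 929 (100 nM), 494 and 498 (150 nM) and 276 and 272 (200 nM). The pairs did not overlap between any neighbouring doses from 12.5 to 150 nM, the doses that played no part in the choice. The median member kept 96.7% of its 0 nM level (12.5 nM), then 93.9% (25 nM), 65.8% (50 nM), 43.9% (75 nM), 29.4% (100 nM), 15.9% (150 nM) and 8.72% (200 nM). At 25 nM no member stood at or under 50% of its measured mean at 0 nM, at 75 nM 38 of 59 did, and at 100 nM 58 did. In bulk RNA, fewer cells with a transcript and less of it per cell cannot be told apart.

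**Figure D1:**
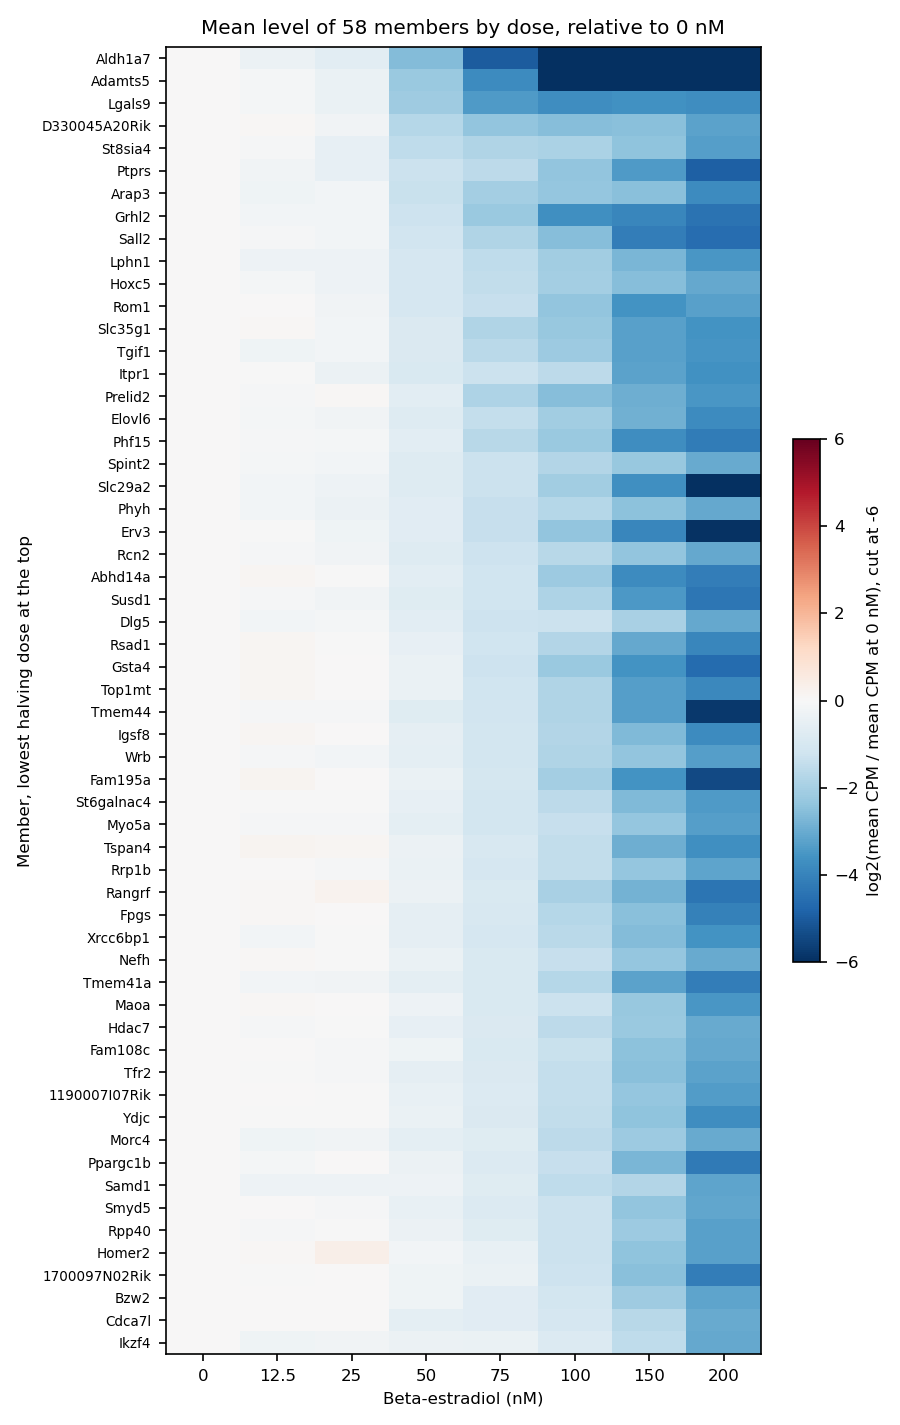
Each row is one of 58 members drawn, ordered by the dose at which it was halved, and each column a beta-estradiol dose in nM. The colour is log2 of the mean CPM at that dose over the mean at 0 nM (n = 2, drawn no lower than -6). The columns up to 25 nM stay near white, and the blue starts at 50 nM at the top and at 100 nM at the bottom.

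The label under which the genes were gathered calls them progenitor genes, a name that the lists used here could not check. Of 45 known genes of blood stem and progenitor cells that were listed, 19 were tested and 15 stood at 10 CPM or more at 0 nM. In every library 9 of the 25 listed regulators and 7 of the 20 listed surface receptors, Cd34 and Ptprc among them, were at 0. On these lists stood 0 of the 59 members. Members make up only 59 of the 10080 genes tested, so lists with 19 tested genes may hold none by their size alone. None of the 187 genes on any of the 10 lists used here was a member, though 1 of them, the mast cell marker Il1rl1, met both thresholds (0.977% of its 0 nM level) and is absent because the rule left it out by name. Gata2, the GATA factor of progenitor cells, averaged 16.4 ± 2.1 CPM at 200 nM and 127 ± 8.7 CPM at 0 nM (SD, n = 2), which is 13.0% of its 0 nM level and just over the line at 12.5%. Kit, the receptor for stem cell factor, kept 36.9%, Myc 23.9% and Myb 20.5%. The members are therefore called here by their rule. By textbook role they divided into 12 genes of transcription and chromatin, 16 of the cell surface, matrix and signalling, 10 of small-molecule, lipid and sugar metabolism, 9 of RNA, translation and organelles, and 12 others, a grouping made after the members were known.

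Few members were called lower between 12.5 and 25 nM, and most were between 25 and 50 nM. The first of these steps spans 12.5 nM and the second 25 nM. At 25 against 12.5 nM, 2 members were called lower by edgeR's quasi-likelihood test at an adjusted p under 0.05, Lgals9 and St8sia4, and 0 higher, while 0.198% of all genes tested were called lower and 0.893% higher. At 50 against 25 nM, 53 of 59 members were called lower and 0 higher, against 12.1% of all genes lower and 14.1% higher. The 6 not called were Phyh, Tmem41a, Ikzf4, Fam108c, Samd1 and 1 unnamed gene model. Their log2 fold changes at this step lay between -0.36 and 0.00. The median over the members was -0.06 at 25 against 12.5 nM and -0.52 at 50 against 25 nM, and over all genes 0.00 and 0.01.

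The decline went on at every later step tested. Members called lower numbered 46 at 75 against 50 nM, 46 at 100 against 75 nM and 50 at 150 against 100 nM, and none was called higher. Of all genes tested, 15.8%, 12.8% and 20.2% were called lower in those 3 comparisons and 16.6%, 14.7% and 20.6% higher. The median log2 fold change was -0.51 at 75 against 50 nM, -0.59 over the 58 members with more than 3 reads at both doses at 100 against 75 nM, and -0.96 over 57 such members at 150 against 100 nM. The last of these spans 50 nM and the 2 before it 25 nM each. Of the 5 steps from 12.5 to 150 nM, 35 members were called lower at 4, and 4 members at a single step.

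Over the whole range open to a test, 150 against 12.5 nM, all 59 members were called lower and 0 higher. Of all genes, 36.4% were called lower and 38.1% higher. Genes with a smaller fall at the highest dose were nearly all called lower too. They were 232 of 233 that fell 4- to 8-fold (99.6%) and 916 of 921 that fell 2- to 4-fold (99.5%). The count of calls over this range therefore does not set the members apart from those genes. Leaving out the pair of members with no read at 150 nM, the members' log2 fold changes ran from -4.08 (Sall2) to -1.28 (Ikzf4). Their median was -2.61, against 0.01 over all genes tested. With library size alone as the scale, all 59 were again called lower, while the split over all genes was 4939 lower and 2807 higher, against 3669 lower and 3839 higher with TMM, and the median of all genes was -0.24.

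The share of genes called lower between 25 and 50 nM was set beside that of genes that fell less at 200 nM. Of 233 genes with the same minimum at 0 nM that fell 4- to 8-fold, 74.7% were called lower at 50 against 25 nM, and of 921 that fell 2- to 4-fold, 41.2% were. The share of members was 89.8%. At 75 against 50 nM the order was not the same, with 78.0% of the members, 85.4% of the genes that fell 4- to 8-fold and 63.4% of those that fell 2- to 4-fold called lower. In the same sequence, the shares were 78.0%, 84.1% and 61.6% at 100 against 75 nM. They were 84.7%, 90.1% and 77.3% at 150 against 100 nM. The median log2 fold changes, however, kept the order of the classes, with the members falling most. In that sequence they were -0.51, -0.36 and -0.22 at 75 against 50 nM. They were -0.59, -0.39 and -0.22 at 100 against 75 nM, and -0.98, -0.66 and -0.39 at 150 against 100 nM. These medians cover all 59 members, those with few reads included. A lower share called was therefore not a smaller median fall. The part of read depth in the shares was not tested. Because these classes were cut from levels at 200 and 0 nM, the differences between them were not tested.

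**Figure D2:**
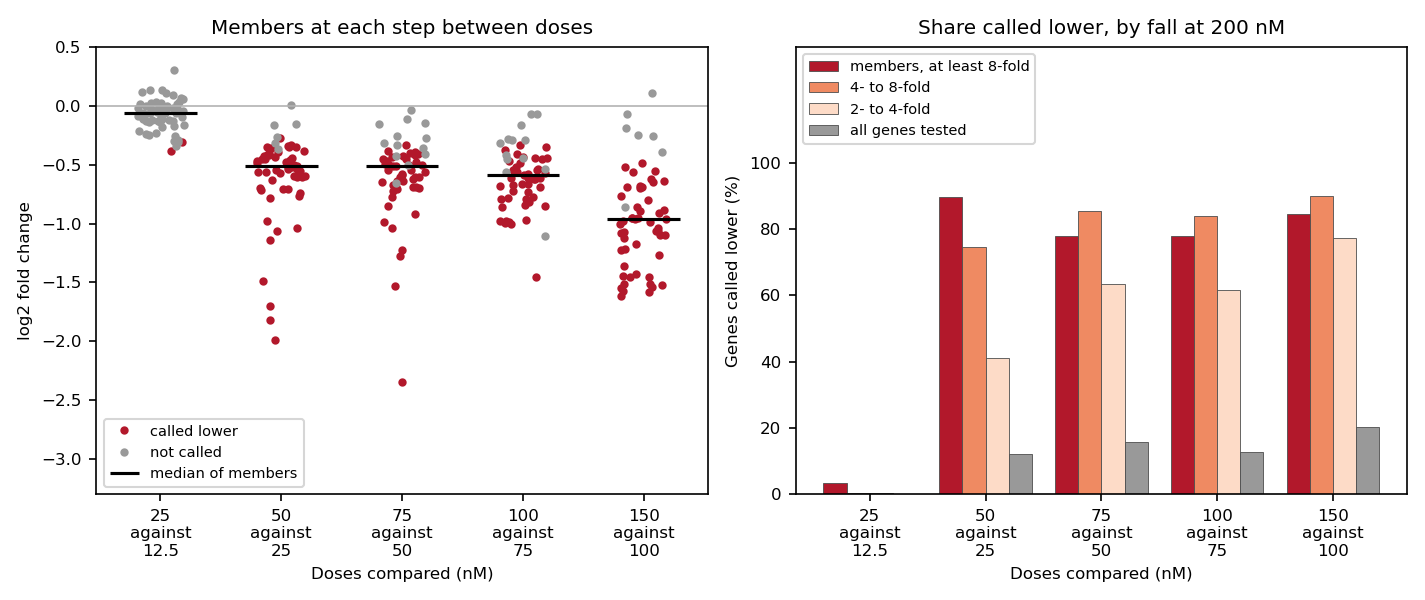
On the left, each point is a member's log2 fold change between a dose and the next lower one (nM), with called genes in red, others in grey and the median as a bar. Members with 3 or fewer reads at a dose are not drawn at that step. On the right, bars give the percentage of genes called lower, for the members, the 2 classes that fell less and all genes tested. The members' bar stands at 3.39% at 25 against 12.5 nM and at 89.8% at 50 against 25 nM.

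The dose at which each member is halved was read from its mean CPM, made non-increasing over the doses on the log2 scale with 0.1 CPM added, by linear interpolation to 50% of the 0 nM level. The halving dose ran from 29.8 nM for Aldh1a7 to 112 nM for Ikzf4. The median was 66.9 nM and the quartiles 56.1 and 78.8 nM. On this fitted level, which averages doses that run against the fall, 12 members were halved by 50 nM, between 50 and 75 nM 29, between 75 and 100 nM 17, and above 100 nM 1. For genes that fell 4- to 8-fold the median was 95.2 nM, and for those that fell 2- to 4-fold 148 nM. A deeper fall passes 50% sooner, so part of this order is set by how the classes were cut. The dose at which 50% of the log2 fall to 200 nM was reached had medians of 104 nM for the members, 109 nM for the genes that fell 4- to 8-fold and 109 nM for those that fell 2- to 4-fold.

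The spread of each halving dose was taken as its range when each of the 16 libraries was left out in turn. It was narrowest for Lgals9, from 33.5 to 33.7 nM, and widest for Itpr1, from 44.6 to 62.1 nM, with a median width of 4.55 nM. The range does not cover the choice of 0 nM, which also chose the members, as the starting level. From the level at 12.5 nM, Aldh1a7 was halved at 34.0 nM, Lphn1 at 63.6 nM and Ikzf4 at 128 nM, each above its range. Tspan4, at 70.5 nM, lay below its range of 71.0 to 75.6 nM, and Rom1, at 49.5 nM, stayed within 45.6 to 56.5 nM. With the 0 nM start, 1427 of the 1711 pairs of members had ranges that did not touch. Along the order, however, only 4 of 58 neighbouring pairs had ranges that did not touch, and the other neighbours did not differ beyond that spread. The 4 gaps lay between Lgals9 and D330045A20Rik, between Igsf8 and Wrb, between Homer2 and the unnamed gene model after it, and between Cdca7l and Ikzf4. Across the 59 members the halving dose went with the dose at 50% of the log2 fall (Spearman's rank correlation 0.79) and more weakly with the level at 0 nM (0.30). Both are descriptions, since the quantities come from the same libraries.

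**Figure D3:**
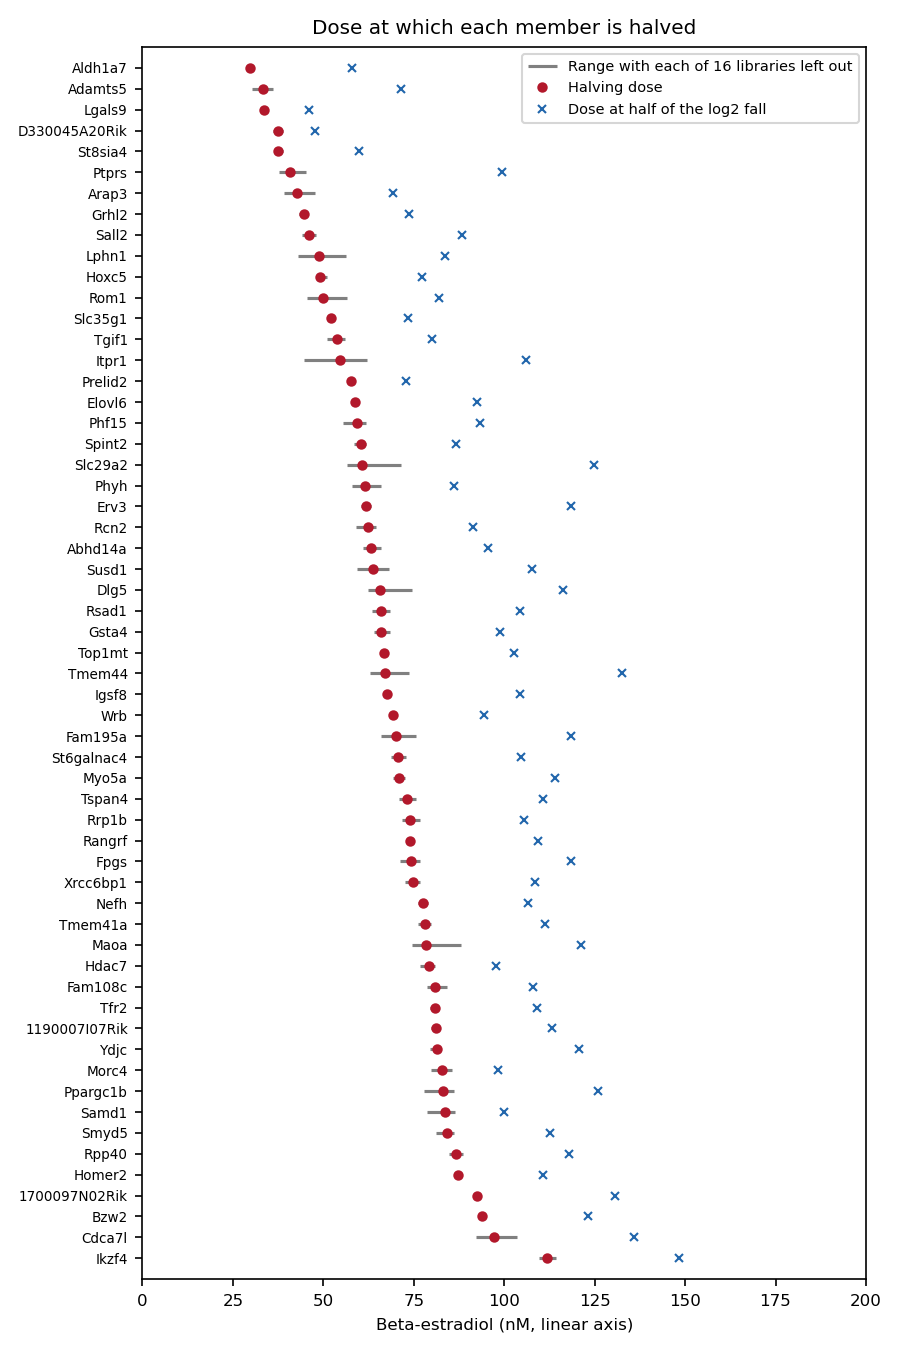
For each of 58 members drawn, the red point is the dose in nM at which its fitted level reached 50% of that at 0 nM, the grey line the range with each of the 16 libraries left out, and the blue cross the dose at 50% of its log2 fall to 200 nM. Red points run from 29.8 nM at the top to 112 nM at the bottom.

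Genes of the cell surface, matrix and signalling had a median halving dose of 61.3 nM (n = 16), and 2 of the 3 members halved soonest were among them. Lgals9, on chromosome 11 (78962974 to 78984946, minus strand, GRCm38), encodes galectin-9, a lectin that binds beta-galactosides on cell surfaces. Lgals9 had 327 and 324 CPM (0 nM), 296 and 307 (12.5 nM), 244 and 243 (25 nM), 75.9 and 74.2 (50 nM), 29.4 and 32.6 (75 nM), 22.6 and 26.0 (100 nM), 25.5 and 27.2 (150 nM) and 24.3 and 25.7 (200 nM). Its pairs of libraries were separate at every dose up to 100 nM, and from there to 200 nM they overlapped and no longer fell. It was the member with the lowest adjusted p at the first step, with a log2 fold change of -0.31 ± 0.04 (SE) at 25 against 12.5 nM (edgeR adjusted p = 3.13e-06). At 50 against 25 nM it fell by 1.70 on the log2 scale (SE 0.05, adjusted p = 2.09e-31) and at 75 against 50 nM it fell by 1.28 (SE 0.06, adjusted p = 5.93e-22). At 150 against 100 nM its log2 fold change was 0.11 ± 0.08 (adjusted p = 0.302), and it was halved at 33.5 nM (range 33.5 to 33.7).

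Adamts5, on chromosome 16 (85856173 to 85901828, minus strand, GRCm38), encodes a secreted protease that cleaves the matrix proteoglycan aggrecan. Adamts5 had 9.32 and 13.0 CPM (0 nM), 10.2 and 10.05 (12.5 nM), 9.45 and 7.42 (25 nM), 1.97 and 2.80 (50 nM), 0.421 and 1.23 (75 nM), 0 and 0.146 (100 nM), 0 and 0 (150 nM) and 0 and 0 (200 nM). Reads were lost altogether, with 2 over both libraries at 100 nM and 0 of both libraries at 150 and at 200 nM, where 12.5 nM had 336. Against a floor of 3 reads over the pair, the level at 150 nM was at least 72.6-fold lower than at 12.5 nM (adjusted p = 6.95e-14). Its halving dose was 33.3 nM (range 30.2 to 36.0).

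The receptors and signalling proteins among the members differed in how soon they fell. Ptprs had 11.1 and 11.8 CPM (0 nM), 9.82 and 9.99 (12.5 nM), 7.65 and 8.50 (25 nM), 5.27 and 4.11 (50 nM), 4.28 and 3.48 (75 nM), 2.08 and 2.41 (100 nM), 1.00 and 1.17 (150 nM) and 0.184 and 0.593 (200 nM). Ptprs encodes a receptor tyrosine phosphatase, and its pairs overlapped between 50 and 75 nM alone. Arap3 had 20.5 and 19.5 CPM (0 nM), 16.03 and 17.6 (12.5 nM), 16.9 and 18.3 (25 nM), 9.46 and 6.54 (50 nM), 5.19 and 4.64 (75 nM), 3.22 and 4.83 (100 nM), 3.54 and 3.51 (150 nM) and 1.38 and 1.53 (200 nM). Arap3, which switches off small GTPases, fell most, of the 5 steps tested, at 50 against 25 nM (log2 fold change -1.14 ± 0.15, adjusted p = 2.44e-08), and its mean at 200 nM was 41.2% of that at 150 nM, a step with no test. Its pairs at 75, 100 and 150 nM overlapped from dose to dose. Lphn1 had 13.7 and 12.2 CPM (0 nM), 10.9 and 9.99 (12.5 nM), 10.5 and 10.1 (25 nM), 7.30 and 5.36 (50 nM), 4.07 and 4.85 (75 nM), 3.65 and 2.49 (100 nM), 0.692 and 3.16 (150 nM) and 1.11 and 1.19 (200 nM). Lphn1, an adhesion receptor coupled to G proteins, rested on few reads at the top, with its 2 libraries at 150 nM on either side of those at 200 nM. These 3 genes were halved at 40.9 nM (range 37.8 to 45.2), 42.7 nM (range 39.0 to 47.6) and 48.9 nM (range 42.9 to 56.2).

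Itpr1 had 12.02 and 12.7 CPM (0 nM), 12.9 and 11.9 (12.5 nM), 9.63 and 9.91 (25 nM), 5.46 and 7.48 (50 nM), 5.26 and 4.85 (75 nM), 4.16 and 4.098 (100 nM), 1.46 and 1.17 (150 nM) and 1.75 and 0.254 (200 nM). Itpr1 is the inositol trisphosphate receptor that releases calcium from the endoplasmic reticulum, and its pairs were separate at every step from 12.5 to 150 nM. At 150 against 12.5 nM Itpr1 fell by 3.19 on the log2 scale (SE 0.27, adjusted p = 6.79e-14) and was halved at 54.5 nM (range 44.6 to 62.1).

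Tfr2, on chromosome 5 (137569840 to 137587481, plus strand, GRCm38), encodes the second transferrin receptor, which senses iron and also binds the erythropoietin receptor. Tfr2 had 208 and 209.7 CPM (0 nM), 200.3 and 214 (12.5 nM), 190.0 and 208 (25 nM), 149 and 139 (50 nM), 111 and 117 (75 nM), 77.4 and 79.7 (100 nM), 36.8 and 36.7 (150 nM) and 21.7 and 23.1 (200 nM). The pairs overlapped up to 25 nM and were separate at each dose above. It fell by 2.49 on the log2 scale at 150 against 12.5 nM (SE 0.06, adjusted p = 6.01e-36) and was halved at 81.0 nM (range 79.6 to 82.0). Tfrc, the first transferrin receptor and a red cell gene, went the other way, with 4159 ± 72.4 CPM at 150 nM and 1149 ± 30.1 CPM at 12.5 nM (SD, n = 2, log2 fold change 1.86 ± 0.03).

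Spint2 had 117 and 112 CPM (0 nM), 101.0 and 108 (12.5 nM), 99.2 and 102 (25 nM), 68.9 and 63.7 (50 nM), 44.9 and 48.4 (75 nM), 33.7 and 33.6 (100 nM), 24.0 and 22.8 (150 nM) and 14.3 and 13.6 (200 nM). Spint2, an inhibitor of cell surface serine proteases, was halved at 60.5 nM (range 58.6 to 61.9) and its pairs were separate at every step from 25 nM on. Homer2 had 20.9 and 20.6 CPM (0 nM), 21.1 and 22.0 (12.5 nM), 27.7 and 25.5 (25 nM), 16.9 and 19.6 (50 nM), 15.8 and 14.7 (75 nM), 8.31 and 8.49 (100 nM), 4.77 and 2.93 (150 nM) and 2.12 and 2.20 (200 nM). Homer2, a scaffold for calcium signalling proteins, was the member with the highest log2 fold change at 25 against 12.5 nM, 0.31, and was not called there. Both 25 nM libraries lay above those at 0 and 12.5 nM, and the fall came after. Homer2 was halved at 87.2 nM (range 86.2 to 87.9). The other surface and signalling members were Rom1, halved at 49.9 nM, Susd1 at 63.7 nM, Dlg5 at 65.7 nM, Igsf8 at 67.5 nM, Myo5a at 70.9 nM and Tspan4 at 73.2 nM.

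**Figure D4:**
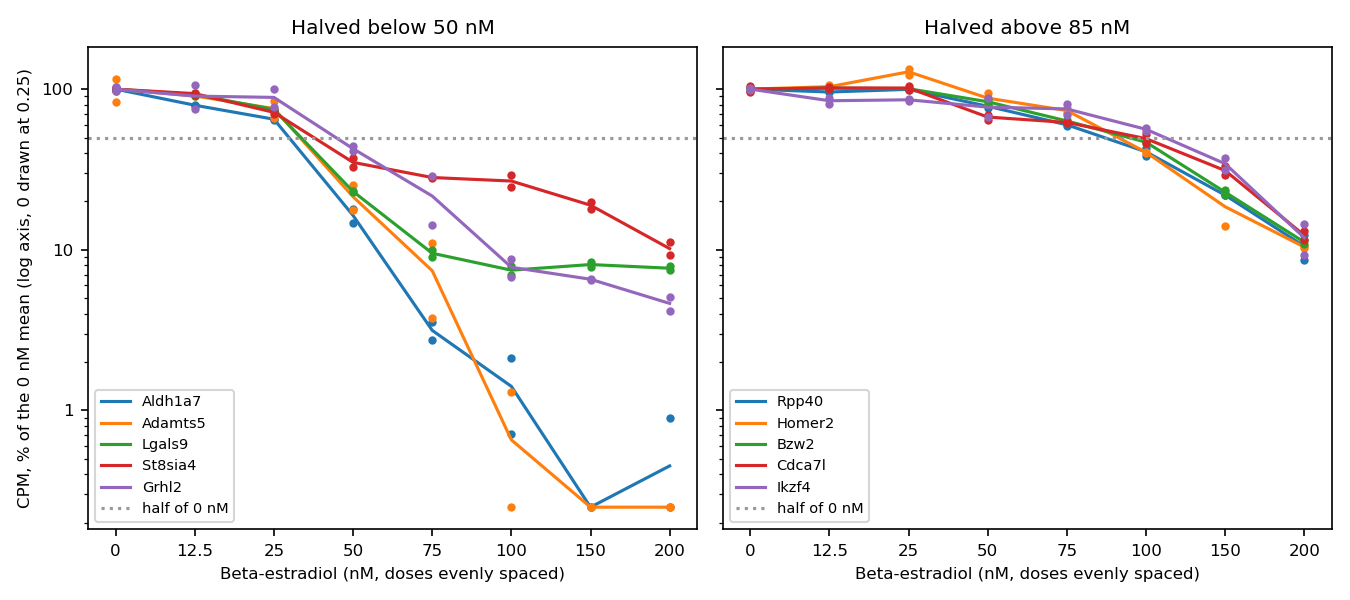
Points are single libraries and lines the mean of 2, as a percentage of the gene's mean CPM at 0 nM on a log axis (values of 0 drawn at 0.25%), against beta-estradiol dose in nM. On the left are 5 members halved below 50 nM and on the right 5 halved above 85 nM. At 50 nM Lgals9 stood at 23.0% of its 0 nM level and Bzw2 at 83.5%.

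Metabolic members had a median halving dose of 61.0 nM (n = 10). Aldh1a7, an aldehyde dehydrogenase gene on chromosome 19 (20692953 to 20727562, minus strand, GRCm38), had the lowest halving dose, 29.8 nM (range 29.2 to 30.5), with a range that met that of Adamts5. Aldh1a7 had 9.87 and 10.5 CPM (0 nM), 8.14 and 8.06 (12.5 nM), 6.58 and 6.68 (25 nM), 1.84 and 1.495 (50 nM), 0.280 and 0.362 (75 nM), 0.215 and 0.0732 (100 nM), 0 and 0 (150 nM) and 0.0921 and 0 (200 nM). The pairs were separate at every step up to 150 nM, where both libraries had no read, against 269 over both at 12.5 nM. The last of these pairs rested on few reads, 4 and 5 at 75 nM and 3 and 1 at 100 nM. Neither 100 against 75 nM nor 150 against 100 nM was called for this gene. Against a floor of 3 reads the level at 150 nM was at least 58.1-fold lower than at 12.5 nM (adjusted p = 8.07e-18). Aldh1a1, a close paralog, had 116 and 97 counts at 150 nM against 58 and 53 at 12.5 nM, the opposite direction. The sources used here do not say how the authors' counting shared reads between paralogs, so the level of each is uncertain.

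St8sia4 and St6galnac4 encode sialyltransferases, the first making polysialic acid and the second adding sialic acid to O-linked sugars. St8sia4 had 31.5 and 32.5 CPM (0 nM), 30.4 and 29.6 (12.5 nM), 22.5 and 23.3 (25 nM), 11.9 and 10.5 (50 nM), 9.04 and 8.98 (75 nM), 9.31 and 7.83 (100 nM), 6.38 and 5.74 (150 nM) and 2.95 and 3.56 (200 nM). St6galnac4 had 129 and 127 CPM (0 nM), 119.9 and 131 (12.5 nM), 123 and 124 (25 nM), 89.0 and 93.1 (50 nM), 56.7 and 61.7 (75 nM), 44.1 and 40.5 (100 nM), 20.2 and 19.9 (150 nM) and 12.8 and 11.6 (200 nM). St8sia4 was already lower in both 25 nM libraries than in both 12.5 nM libraries (log2 fold change -0.39 ± 0.10, edgeR adjusted p = 0.0383), a call that was lost with DESeq2 and when any of the 4 libraries was left out. The pairs of St6galnac4 overlapped up to 25 nM and were separate above. St8sia4 was halved at 37.6 nM (range 36.5 to 38.8) and St6galnac4 at 70.7 nM (range 68.8 to 72.7).

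Fpgs encodes folylpolyglutamate synthase, which adds glutamates to folate and so keeps it in the cell. Fpgs had 91.7 and 95.6 CPM (0 nM), 95.6 and 99.5 (12.5 nM), 90.4 and 97.5 (25 nM), 68.2 and 61.4 (50 nM), 45.2 and 49.6 (75 nM), 30.3 and 27.2 (100 nM), 16.8 and 16.2 (150 nM) and 5.71 and 5.68 (200 nM). Its pairs overlapped up to 25 nM and were separate at every step above, and it was halved at 74.3 nM (range 71.2 to 76.6). Slc29a2, a nucleoside transporter gene, had 322 reads over both libraries at 12.5 nM, 19 at 150 nM and 3 at 200 nM. Its ratio of 12.5 to 150 nM was 11.0 (counting interval 6.92 to 18.5). Elovl6, an elongase of fatty acids, was halved at 58.8 nM, Phyh, of peroxisomal oxidation, at 61.4 nM, Gsta4, a glutathione transferase, at 66.0 nM and Maoa, which breaks down monoamines, at 78.5 nM. Slc35g1 was halved at 52.2 nM.

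Genes of transcription and chromatin had the highest median halving dose of the role groups, 80.9 nM (n = 12), and ran from 44.5 to 112 nM. By the dose at 50% of the log2 fall, their median of 98.0 nM was the second lowest of the 5 groups, whose medians ran from 95.6 to 112 nM, so the order of the groups depends on the measure. Grhl2 had 16.7 and 15.8 CPM (0 nM), 17.1 and 12.3 (12.5 nM), 16.3 and 12.6 (25 nM), 7.17 and 6.67 (50 nM), 2.31 and 4.71 (75 nM), 1.43 and 1.10 (100 nM), 1.08 and 1.05 (150 nM) and 0.829 and 0.678 (200 nM). Sall2 had 11.7 and 13.2 CPM (0 nM), 13.0 and 10.8 (12.5 nM), 11.1 and 10.9 (25 nM), 5.39 and 5.79 (50 nM), 3.79 and 3.41 (75 nM), 2.44 and 1.76 (100 nM), 0.692 and 0.703 (150 nM) and 0.461 and 0.593 (200 nM). Grhl2, a grainyhead factor of epithelia, and Sall2, a zinc finger factor, were lower in both 50 nM libraries than in any library at 0 to 25 nM. At 150 against 12.5 nM Grhl2 fell by 3.77 (SE 0.29, adjusted p = 4.84e-14) and Sall2 fell by 4.08 (SE 0.27, adjusted p = 2.18e-18) on the log2 scale. Grhl2 was halved at 44.5 nM (range 43.3 to 45.5) and Sall2 at 46.1 nM (range 44.0 to 48.1).

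Hoxc5 had 50.5 and 47.8 CPM (0 nM), 44.9 and 46.5 (12.5 nM), 42.3 and 38.6 (25 nM), 24.6 and 23.7 (50 nM), 18.8 and 16.5 (75 nM), 13.0 and 11.3 (100 nM), 7.85 and 8.90 (150 nM) and 6.54 and 5.25 (200 nM). Hoxc5, a homeobox gene, stepped down at every dose without overlap and was halved at 49.2 nM (range 48.0 to 51.0). Tgif1 had 12.1 and 12.9 CPM (0 nM), 11.2 and 9.41 (12.5 nM), 9.57 and 12.5 (25 nM), 7.11 and 6.35 (50 nM), 3.30 and 4.85 (75 nM), 3.15 and 2.34 (100 nM), 1.69 and 0.937 (150 nM) and 1.75 and 0.424 (200 nM). Tgif1, a homeobox repressor of SMAD signalling, overlapped between 12.5 and 25 nM and again between 150 and 200 nM. Its halving dose was 53.8 nM (range 51.1 to 55.9). Phf15 (Jade2), a PHD finger protein of a histone acetyltransferase complex, was halved at 59.3 nM.

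Of the 3 chromatin enzymes described next, each was halved above 75 nM. Hdac7 had 43.8 and 46.5 CPM (0 nM), 41.2 and 46.2 (12.5 nM), 43.3 and 46.4 (25 nM), 32.4 and 32.7 (50 nM), 23.3 and 25.5 (75 nM), 15.5 and 14.9 (100 nM), 9.38 and 9.60 (150 nM) and 5.44 and 5.59 (200 nM). Morc4 had 50.0 and 43.6 CPM (0 nM), 39.0 and 40.7 (12.5 nM), 42.5 and 38.3 (25 nM), 29.3 and 32.3 (50 nM), 28.3 and 27.6 (75 nM), 16.9 and 14.7 (100 nM), 10.4 and 10.1 (150 nM) and 5.99 and 5.51 (200 nM). Hdac7, a class IIa histone deacetylase, was halved at 79.1 nM (range 76.8 to 80.8), and Morc4, an ATPase of the MORC family, at 82.7 nM (range 79.8 to 85.7). Smyd5 had 128 and 138 CPM (0 nM), 131 and 136 (12.5 nM), 126 and 124 (25 nM), 97.9 and 99.9 (50 nM), 71.2 and 77.8 (75 nM), 57.0 and 52.3 (100 nM), 25.1 and 26.4 (150 nM) and 15.8 and 14.8 (200 nM). Smyd5, a SET-domain methyltransferase, was halved at 84.2 nM (range 81.1 to 86.0), and its pairs were separate at every step from 12.5 nM on. Ppargc1b, a coactivator of mitochondrial genes, was halved at 83.0 nM and Samd1, which binds CpG islands, at 83.7 nM.

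Ikzf4 and Cdca7l were the last to be halved. Ikzf4 had 12.5 and 13.0 CPM (0 nM), 11.3 and 10.3 (12.5 nM), 10.8 and 11.1 (25 nM), 11.2 and 8.54 (50 nM), 8.83 and 10.4 (75 nM), 7.02 and 7.32 (100 nM), 4.77 and 3.98 (150 nM) and 1.84 and 1.19 (200 nM). Ikzf4 (Eos), a zinc finger factor of the Ikaros family, overlapped from dose to dose between 12.5 and 75 nM and was called lower at 150 against 100 nM alone (log2 fold change -0.69 ± 0.20, adjusted p = 0.00478). Its halving dose was 112 nM (range 109.5 to 114). Cdca7l had 43.5 and 39.9 CPM (0 nM), 43.0 and 41.8 (12.5 nM), 43.8 and 40.9 (25 nM), 26.9 and 29.0 (50 nM), 25.8 and 25.9 (75 nM), 21.8 and 19.2 (100 nM), 13.8 and 12.2 (150 nM) and 5.44 and 4.83 (200 nM). Cdca7l, a MYC-binding protein, fell at 50 against 25 nM and held through 75 nM, where the log2 fold change against 50 nM was -0.11 and not called. It was halved at 97.0 nM (range 92.1 to 103).

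Members that act on RNA, translation and organelles had a median halving dose of 73.9 nM (n = 9). Bzw2, on chromosome 12 (36091835 to 36158080, minus strand, GRCm38), encodes a mimic of the initiation factor eIF5 and was the member with the highest level at 0 nM. Bzw2 had 466 and 467 CPM (0 nM), 469 and 477 (12.5 nM), 467 and 471 (25 nM), 399.6 and 379 (50 nM), 298 and 293 (75 nM), 221 and 215 (100 nM), 103 and 110.2 (150 nM) and 53.6 and 50.4 (200 nM). Both libraries at 12.5 nM lay above those at 0 nM, and from 50 nM each pair lay below the one before. Its log2 fold change was -0.27 ± 0.03 at 50 against 25 nM (adjusted p = 2.5e-08) and -1.04 ± 0.04 at 150 against 100 nM (adjusted p = 8.45e-25), and it was halved at 93.9 nM (range 93.1 to 94.7). Bzw2 and Lgals9, the 2 members with the highest levels at 0 nM, stood near opposite ends of the order.

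Rrp1b had 112 and 111 CPM (0 nM), 111 and 112 (12.5 nM), 107 and 107 (25 nM), 83.8 and 82.6 (50 nM), 56.9 and 52.4 (75 nM), 41.0 and 38.8 (100 nM), 20.2 and 24.4 (150 nM) and 14.5 and 10.6 (200 nM). Rrp1b, a nucleolar protein of ribosome assembly, had pairs that were separate at each step from 12.5 nM on and was halved at 73.9 nM (range 71.6 to 76.6). Rpp40 had 33.1 and 31.1 CPM (0 nM), 30.9 and 30.6 (12.5 nM), 31.6 and 32.3 (25 nM), 25.6 and 24.6 (50 nM), 19.5 and 19.0 (75 nM), 13.8 and 12.4 (100 nM), 7.0 and 7.03 (150 nM) and 2.76 and 3.98 (200 nM). Rpp40, a subunit of RNase P, was halved at 86.8 nM (range 84.7 to 88.6), with both 25 nM libraries above both at 12.5 nM before the fall. The mitochondrial members Prelid2, Top1mt and Xrcc6bp1 (Atp23) were halved at 57.7, 66.9 and 74.9 nM, Rcn2, a calcium-binding protein of the endoplasmic reticulum, at 62.4 nM and Rsad1 at 65.9 nM. Rangrf, a cofactor of the nuclear transport GTPase Ran, was halved at 74.0 nM. Of its exonic bases 90.7% are shared with Slc25a35 on the opposite strand, listed at 0.0921 CPM at 200 nM and 1.65 CPM at 0 nM, so the counts of Rangrf may hold reads of both. The library method did not keep the strand, so reads of such a pair cannot be told apart where the exons overlap.

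Erv3 had 96.5 and 99.9 CPM (0 nM), 99.0 and 93.8 (12.5 nM), 79.5 and 84.7 (25 nM), 60.1 and 62.7 (50 nM), 36.0 and 40.4 (75 nM), 20.6 and 18.1 (100 nM), 7.77 and 5.27 (150 nM) and 1.47 and 1.78 (200 nM). Erv3, on chromosome 2 (131853678 to 131859747, minus strand, GRCm38), is a gene of retroviral origin and had pairs that were separate from 12.5 nM upward. It fell by 3.83 on the log2 scale at 150 against 12.5 nM (SE 0.10, adjusted p = 1.07e-33) and was halved at 61.8 nM (range 60.5 to 63.3). Nefh had 83.8 and 89.3 CPM (0 nM), 89.7 and 90.5 (12.5 nM), 84.6 and 84.9 (25 nM), 68.9 and 64.2 (50 nM), 46.4 and 44.9 (75 nM), 33.9 and 33.1 (100 nM), 16.9 and 17.8 (150 nM) and 9.58 and 11.8 (200 nM). Nefh encodes the heavy neurofilament protein, a filament of axons, and it was halved at 77.7 nM (range 76.1 to 78.8). Both of its 12.5 nM libraries lay above those at 0 nM.

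Fam195a had 36.4 and 34.9 CPM (0 nM), 38.1 and 41.3 (12.5 nM), 35.8 and 36.3 (25 nM), 26.5 and 27.5 (50 nM), 15.3 and 19.3 (75 nM), 9.74 and 7.68 (100 nM), 2.85 and 3.05 (150 nM) and 0.737 and 0.932 (200 nM). Abhd14a had 33.9 and 34.2 CPM (0 nM), 36.9 and 37.0 (12.5 nM), 31.3 and 35.0 (25 nM), 23.2 and 20.7 (50 nM), 13.5 and 15.7 (75 nM), 7.67 and 7.24 (100 nM), 3.62 and 1.41 (150 nM) and 1.84 and 2.03 (200 nM). The pairs of both genes were separate from 12.5 to 150 nM, and those of Abhd14a overlapped between 150 and 200 nM. Fam195a (Mcrip2) fell by 3.76 (SE 0.15, adjusted p = 9.81e-27) and Abhd14a, a hydrolase gene, fell by 3.76 (SE 0.17, adjusted p = 5.22e-25) on the log2 scale at 150 against 12.5 nM. Without 150 nM replicate 1, Abhd14a fell by 4.71, and without replicate 2 it fell by 3.36. D330045A20Rik had 11.1 and 9.96 CPM (0 nM), 10.9 and 11.4 (12.5 nM), 9.09 and 8.90 (25 nM), 3.55 and 2.87 (50 nM), 1.96 and 2.10 (75 nM), 1.36 and 2.27 (100 nM), 1.23 and 2.46 (150 nM) and 0.461 and 1.78 (200 nM). D330045A20Rik (Radx), which binds single-stranded DNA at replication forks, had most of its fall behind it by 50 nM, and its pairs overlapped from dose to dose from 75 to 200 nM. Of the 5 steps, it was called lower at 50 against 25 nM alone (log2 fold change -1.49 ± 0.22, adjusted p = 5.37e-07) and was halved at 37.4 nM (range 36.2 to 38.7). The remaining members were Abhd14a, halved at 63.1 nM, Tmem44 at 67.0 nM, Wrb (Get1) at 69.3 nM, Fam195a at 70.2 nM, Tmem41a at 78.2 nM, Fam108c (Abhd17c) at 80.9 nM, Ydjc at 81.3 nM and 2 unnamed gene models at 81.2 and 92.5 nM. Ydjc shares 29.9% of its exonic bases with Ube2l3 on the opposite strand, which stood at 138 CPM at 200 nM and 149 CPM at 0 nM.

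At the thresholds the members shaded into genes that were left out. Just inside the one-eighth line stood Nefh at 12.3% of its 0 nM level, Cdca7l at 12.3%, Morc4 at 12.3% and Hdac7 at 12.2%. Just outside stood Cd320 with 2.63 ± 0.59 CPM at 200 nM and 20.9 ± 1.5 CPM at 0 nM (12.6%) and Fam199x with 2.00 ± 0.56 CPM at 200 nM and 15.9 ± 1.0 CPM at 0 nM (12.6%). Lrp8 had 1.88 ± 0.45 CPM at 200 nM and 14.9 ± 0.67 CPM at 0 nM (12.6%), and Dnahc8 2.88 ± 0.23 CPM at 200 nM and 22.7 ± 0.094 CPM at 0 nM (12.7%; SD, n = 2). Just over the minimum of 10 CPM at 0 nM stood an unnamed gene model at 10.1 CPM, Aldh1a7 at 10.2 CPM and D330045A20Rik at 10.5 CPM. Just under it were Clca1 at 9.94 CPM, Zfp566 at 9.88 CPM and Zfp827 at 9.83 CPM, which fell 32.3-, 13.4- and 8.38-fold at 200 nM.

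Features that the rule did not use were close to those of all genes. The members lay on 20 chromosomes, and 58 of 59 (98.3%) were protein coding. The 9980 tested genes that could be placed in GENCODE release M21 also lay on 20 chromosomes, and 96.0% of them were protein coding. Median gene length was 25590 bp for members and 21976 bp for those genes. Median exonic length was 4556 bp for members and 4398 bp for all. Within 1000000 bp of each other lay 3 pairs of members, St6galnac4 and Fpgs 82911 bp apart on chromosome 2, Lphn1 and Samd1 55718 bp apart on chromosome 8, and Morc4 and D330045A20Rik 267050 bp apart on chromosome X. The genes of the first pair were halved at 70.7 and 74.3 nM, of the second at 48.9 and 83.7 nM and of the third at 82.7 and 37.4 nM.

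Promoter sequence, 250 bases before to 50 after the start of transcription, was taken from RefSeq on GRCm38.p6, where 35 of the 59 members had a single entry. GATA factors bind WGATAR, here searched on both strands as AGATAA or as TGATAA, and with the last letter changed as AGATAG or as TGATAG. At least 1 such match lay in 8 of the 35 member promoters (22.9%) and in 18.2% of the 6516 promoters of genes tested. CACGTG, the E-box bound by MYC and its relatives, lay in 4 member promoters (11.4%) and in 11.0% of all. Median GC content was 61.0% in both. The 4 promoters below come from the members halved soonest and last among those with a GATA match. Erv3, a gene of retroviral origin halved at 61.8 nM, also had a match and was left out. The members shown were halved at 37.6 nM (St8sia4), 62.4 nM (Rcn2, close to the median of all members), 82.7 nM (Morc4) and 93.9 nM (Bzw2). The windows are chr1:95667545-95667844 (St8sia4, minus strand), chr9:56041595-56041894 (Rcn2, plus strand), chrX:139871605-139871904 (Morc4, minus strand) and chr12:36156776-36157075 (Bzw2, minus strand). Capitals mark the match, which is a match of letters and not evidence of binding.
St8sia4: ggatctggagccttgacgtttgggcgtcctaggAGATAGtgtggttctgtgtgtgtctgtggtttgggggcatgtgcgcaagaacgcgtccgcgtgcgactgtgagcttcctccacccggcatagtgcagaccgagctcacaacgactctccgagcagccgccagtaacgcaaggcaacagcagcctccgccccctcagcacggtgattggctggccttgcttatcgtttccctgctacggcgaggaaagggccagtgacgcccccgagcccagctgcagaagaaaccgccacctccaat
Rcn2: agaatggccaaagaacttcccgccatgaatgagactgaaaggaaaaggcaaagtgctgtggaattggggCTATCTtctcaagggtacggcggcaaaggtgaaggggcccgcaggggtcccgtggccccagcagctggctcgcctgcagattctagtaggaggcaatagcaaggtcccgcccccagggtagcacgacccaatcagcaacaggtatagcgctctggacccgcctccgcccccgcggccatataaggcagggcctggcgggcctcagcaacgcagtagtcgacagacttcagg
Morc4: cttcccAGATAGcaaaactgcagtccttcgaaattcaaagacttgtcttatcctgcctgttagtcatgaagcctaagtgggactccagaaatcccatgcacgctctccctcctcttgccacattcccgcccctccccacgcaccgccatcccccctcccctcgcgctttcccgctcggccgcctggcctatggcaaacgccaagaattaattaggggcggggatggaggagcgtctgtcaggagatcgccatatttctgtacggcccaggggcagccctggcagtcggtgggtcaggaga
Bzw2: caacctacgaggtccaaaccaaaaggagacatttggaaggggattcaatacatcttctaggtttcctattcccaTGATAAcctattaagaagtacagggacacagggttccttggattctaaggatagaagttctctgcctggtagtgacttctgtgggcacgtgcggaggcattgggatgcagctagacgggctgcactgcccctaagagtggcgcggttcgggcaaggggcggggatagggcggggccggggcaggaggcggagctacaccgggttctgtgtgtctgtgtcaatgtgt
The matches begin at -217 (St8sia4), -181 (Rcn2), -244 (Morc4) and -176 (Bzw2) bases from the start of transcription. Most of the 35 members with an entry, Lgals9 and Aldh1a7 among them, had no match in this window.

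Ribosome biogenesis genes and genes of folate and nucleotide metabolism were mostly lower at 150 than at 12.5 nM, as the members were, while terminal red cell genes were higher and the lists of progenitor genes were split. Of all genes tested, 36.4% were called lower in this comparison and 38.1% higher. In it, 29 of 30 ribosome biogenesis genes were called lower and 0 higher, with a median log2 fold change of -1.24, and 22 of 25 genes of folate and nucleotide metabolism were called lower and 2 higher, with a median of -0.88. The nucleolar protein gene Nolc1 averaged 210.0 ± 11.2 CPM at 150 nM and 639 ± 9.2 CPM at 12.5 nM, and Mthfd1, a folate enzyme, 264 ± 7.1 CPM at 150 nM and 1176 ± 14.5 CPM at 12.5 nM (SD, n = 2). Rrp1b and Fpgs, members of related function, are not on those lists. Of 13 stem and progenitor regulators tested, 8 were called lower and 5 higher, with a median of -0.50. Gata2 fell by 2.08 on the log2 scale (SE 0.11, adjusted p = 1.49e-10), Myc fell by 1.60 (SE 0.04) and Myb fell by 1.60 (SE 0.10), while Runx1 was higher by 1.36 (SE 0.06) and Elf1 by 1.25 (SE 0.08). Of 6 progenitor receptors tested, 3 were lower and 2 higher, with a median of -0.01, too few genes to set beside the shares over all genes. Kit was lower, with a log2 fold change of -1.03 ± 0.04, and Gpr56, an adhesion receptor coupled to G proteins, was higher, with 1.09 ± 0.03. All 15 terminal red cell genes tested were higher, and their sum over the 16 listed symbols in the table was 25289 and 25685 CPM at 150 nM against 3154 and 3214 CPM at 12.5 nM.

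Markers of other blood cells also moved with dose. The 13 megakaryocyte and platelet markers summed to 458 and 466 CPM at 150 nM and to 20.9 and 22.4 CPM at 12.5 nM, with 5 of 7 tested called higher and Gp1bb, Vwf and Thbs1 at 0 in every library. The 16 granulocyte and macrophage markers in the table summed to 62.5 and 66.8 CPM at 150 nM and to 4.09 and 4.16 CPM at 12.5 nM. Most of that was Sfpi1 (PU.1), at 61.0 ± 2.3 CPM at 150 nM and 3.16 ± 0.10 CPM at 12.5 nM, and 8 of the 16, Mpo, Ctsg, S100a8, S100a9 and Lyz2 among them, were at 0 throughout. The 20 mast cell and basophil markers summed to 296 and 300 CPM at 150 nM and to 672 and 688 CPM at 12.5 nM. Most of that was Kit, at 250 ± 1.1 CPM at 150 nM and 509 ± 11.9 CPM at 12.5 nM. Gata2 added 28.4 ± 3.3 CPM at 150 nM and 121.6 ± 1.9 CPM at 12.5 nM, and both genes also stand on the progenitor lists. Of 9 tested, 5 were lower, Il1rl1, Kit and Gata2 among them, and 2 higher, Srgn and Rab27b. Cpa3 and Hdc were not called, and Mcpt8, Tpsab1, Prss34 and Mitf were at 0 in every library. Lymphocyte markers and markers of fibroblasts and endothelium stayed at or under 1.05 CPM in sum at 150 and 12.5 nM, and none passed the filter. The part of these cell types in the fall of the members was not tested.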

How the data were processed

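The table deposited by the authors holds raw counts of reads for each gene symbol in 16 libraries, and 0 other columns of samples were present. Libraries were made with Smart-seq2, per the labels' protocols, a method that keeps no strand and has no molecular identifiers, so intervals cover counting error only. STAR, bcl2fastq and the mm10 build are named in the submitters' processing notes; the sources used here do not give versions, the counting program, its annotation or the exposure time.

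From these counts, genes were kept by filterByExpr with dose as the group, libraries were scaled by TMM, and edgeR 4.0.16 (R 4.3.3) fitted a robust quasi-likelihood model to all 16 libraries with dose as a factor, tested on simulated data first. P-values were adjusted by Benjamini-Hochberg over all 10080 genes in each comparison, with a threshold of 0.05. The standard error (SE) is the log2 fold change over the square root of F. CPM is TMM-scaled. Alternatives were DESeq2 1.42.0, library size alone, no filter, the replicate number as a block, a fit of 12 libraries, other forms of the halving dose and leaving out libraries.

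Members, lists, role groups and tests were chosen with earlier results of these data known. Every member may be named; full library values are given by rule for members at the ends of the orders of level, halving dose and fold change, next to a threshold, or acting as transcription factors, receptors or signalling proteins, and from lists Gata2, Kit, Myc and Myb are named, with some further genes of smallest adjusted p. Fam195a, next to the end of the fold-change order, was added after its values were seen. Unnamed gene models were counted, and 1 member is counted but not reported here on its own. Positions are from GENCODE M21 on GRCm38.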

Additional observations from a re-analysis of the deposited data

How the results depend on the processing

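The fall of the members kept its direction under every alternative run, and all 59 were called lower at 150 against 12.5 nM in each of them, with library size alone, DESeq2, no filter, the replicate block, 12 libraries, and each library of those doses left out. A fit without a library leaves 1 at that dose, assumed to vary like the rest. At 25 against 12.5 nM the 2 calls became 1 with DESeq2, which gave 28 members no adjusted p, 3 with library size alone, 3 without the filter, and 1 whichever of the 4 libraries was left out. Lgals9 kept its call each time (adjusted p from 1e-09 to 0.00119), while the adjusted p of St8sia4 was 0.191 with DESeq2 and 0.112 to 0.337 with a library left out. At 50 against 25 nM the count was 44 with DESeq2 and 42 to 48 with a library left out, at 75 against 50 nM 44 and 40 to 43, at 100 against 75 nM 43 and 39 to 42, and at 150 against 100 nM 50 and 46 to 47.

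The median halving dose was 66.1 nM with DESeq2 size factors, 67.0 nM with 1 CPM added, 68.6 nM from the level at 12.5 nM and 63.4 nM with library size alone, and 65.9 to 69.3 nM with a library left out, the highest without 75 nM replicate 1. The number of members was 61 with DESeq2 size factors, 64 without the filter and 119 with library size alone, and each of these sets held all 59. It was 58 to 68 with a library at 0 or 200 nM left out, with 50 to 56 of the 59 among them, so membership near the lines rests on single libraries. The cause of these moves was not tested.

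Replicate numbers were checked for pairing. Deviations of same-numbered libraries had correlations of -0.10 to 0.11 over 28 pairs of doses, with 1 over 0.1, so the numbers were not taken to pair the libraries. With the replicate block, members called lower were 2 at 25 against 12.5 nM, 53 at 50 against 25 nM, 45 at 75 against 50 nM, 46 at 100 against 75 nM, 49 at 150 against 100 nM and 59 at 150 against 12.5 nM. With 2 libraries a dose, small changes in the members near 10 CPM rest on few reads.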
